A study of Homo sapiens with 13 samples.

Results

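PIK3IP1, INPP5D, INPPL1, INPP5K, INPP4A, INPP4B, PHLPP1 and PHLPP2 are 8 genes whose products hold back signalling through PI3K and AKT. They were taken by name from tables of gene counts, and all 8 are listed in each of the 3 tables, among 16998 symbols that the tables share. The libraries are poly(A) RNA of A549 cells, an established line from a human lung adenocarcinoma, made to study a transcription unit that holds the genes PRR11 and SKA2 together with miR-301a and miR-454. There are 13 libraries, with 1 library per group, so each ratio compares a pair of libraries and has no replicate check.

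The libraries form 4 sets, all in A549 grown in the same medium with serum. In the CRISPRi set, a guide RNA against the promoter that PRR11 and SKA2 share (CRISPRi_PRR11+SKA2 promoter-sgRNA#1, here the CRISPRi library) was compared with a mock guide (CRISPRi_Mock sgRNA). The PRR11 and SKA2 set holds LV-PRR11, LV-SKA2 and LV-P+S, stable lentiviral lines that express PRR11, SKA2 or both from a CMV promoter, and their vector control LV-vector-PS. The lentiviral microRNA set holds LV-miR301a, LV-miR454 and LV-3+4, which carry miR-301a, miR-454 or both on the same vector system, and their control LV-vector-34. In the CRISPRd set, the precursors of miR-301a (CRISPRd_miR301a-#2) or miR-454 (CRISPRd_miR454-#1) were knocked out, with CRISPRd_Control beside them. Whether a line is 1 clone or a pool was not given in the sources used here.

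PI3K makes the membrane lipid PIP3, which recruits AKT so that it can be phosphorylated and activated, and AKT then drives growth and survival. The brakes act at successive steps. PIK3IP1 is a transmembrane protein that binds PI3K and inhibits it. The inositol 5-phosphatases SHIP1 (INPP5D), SHIP2 (INPPL1) and SKIP (INPP5K) convert PIP3 to a bisphosphate, and INPP4A and INPP4B take a further phosphate off that product. PHLPP1 and PHLPP2 are protein phosphatases that dephosphorylate AKT in its hydrophobic motif. INPP4B and PHLPP1 are known as candidate tumour suppressors of epithelial cancers, and SHIP1 is best known from blood cells.

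The mature arms of the microRNAs raised or removed in these cells are shown first, because they share a seed, the stretch by which a microRNA pairs with its targets. The sequences are from RefSeq (GRCh38.p14), written 5′ to 3′ with the seed (bases 2 to 8) in capitals. Both lie on the minus strand, miR-301a-3p at chr17:59151149-59151171 and miR-454-3p at chr17:59137787-59137809.
hsa-miR-301a-3p: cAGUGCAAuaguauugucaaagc
hsa-miR-454-3p: uAGUGCAAuauugcuuauagggu
The seed AGUGCAA is the same in both, so a seed match in a transcript is a match to either of them.

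Matches to this seed (the reverse complement of bases 2 to 8, or of bases 2 to 7 followed by A) were searched in the longest annotated 3′ UTR of each member (GENCODE release 29, GRCh38). INPP4B had 2 matches, PHLPP2 had 1 and PIK3IP1 had 1, none of them an 8mer, and the other 5 members had 0. Of these, 3 are shown, 1 for each gene, with 10 bases on either side and the match in capitals, as DNA on the strand of the gene, which is the minus strand in all 3 genes.
INPP4B, chr4:142023627-142023633: tgatgacctaTTGCACTcacaggtaac
PHLPP2, chr16:71645825-71645831: aaagctgcagTGCACTAtagagtcaag
PIK3IP1, chr22:31282421-31282427: aaaggaagaaTTGCACTgagcattcca
Of 19132 coding genes, 17.3% had such a match. Among genes with 3′ UTRs of like length, the share was 50.3% for INPP4B, 37.7% for PHLPP2 and 18.2% for PIK3IP1. A match is a description of the letters and not a measured site.

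Levels are CPM, read counts scaled to a common library size by TMM within each table, and only CPM per kilobase of exon is used to order the genes. INPPL1 had the highest level per kilobase of the 8 genes in all 13 libraries, between 20.2 and 28.0 CPM per kilobase. INPP5K was second in all 13, between 4.48 and 7.57, though its counting interval overlapped that of PHLPP1 in CRISPRd_miR301a-#2. INPP5D was last in all 13, between 0.0249 and 0.241 CPM per kilobase. PIK3IP1 was the seventh in 12 libraries and the third in the CRISPRi library, at 4.86 CPM per kilobase. INPP4A, PHLPP1, PHLPP2 and INPP4B filled the places between, and neighbours among them often could not be ordered. The counting intervals of PHLPP1 and INPP4A overlapped in all 4 libraries of the PRR11 and SKA2 set, for example, and so did those of PHLPP2 and INPP4B. In LV-3+4, CRISPRd_Control and CRISPRd_miR454-#1 the intervals of PIK3IP1 and INPP5D overlapped as well.

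The members differed in how far their level moved over the 13 libraries. PIK3IP1 spanned 56.1-fold in CPM from its lowest to its highest library, INPP5D 9.69-fold, INPP4B 6.505-fold and PHLPP1 4.37-fold. INPP5K, PHLPP2, INPP4A and INPPL1 spanned 1.69-fold, 1.498-fold, 1.46-fold and 1.39-fold. Part of that span lay among the 4 control libraries, which come from 3 tables that list different genes. Their highest and lowest CPM stood 3.22-fold apart for INPP4B, 3.14-fold for PIK3IP1, 3.08-fold for INPP5D and 1.53-fold for PHLPP1. The plot of CPM by library shows all 8 genes.

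**Figure D1:**
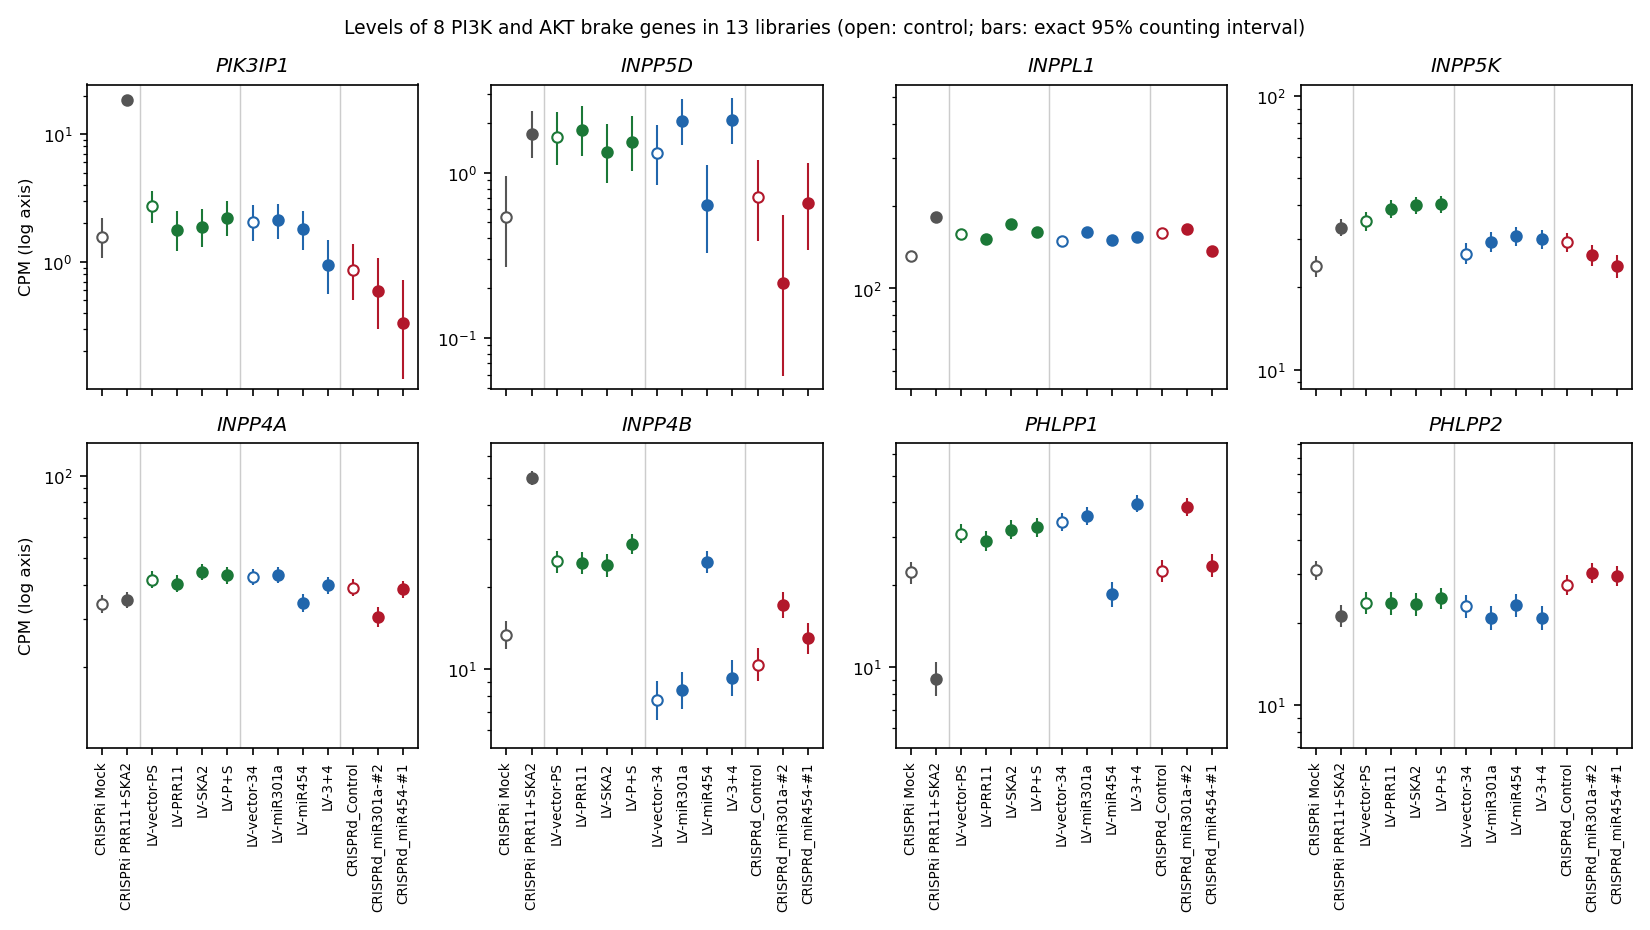
CPM (log axis) of each of the 8 genes in the 13 libraries, 1 point per library with its exact 95% counting interval; open points are controls, and vertical lines part the 4 sets. PIK3IP1 stands at 18.5 CPM in the CRISPRi library and at 2.71 CPM or less in the other 12, while INPPL1 stays between 131 and 183 CPM.

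Total counts were 18672601 to 21811946 per library. With the promoter repressed, PRR11 went from 2029 counts to 14 and SKA2 from 1594 to 5, so the repression is seen. MIR301A and MIR454, of the same transcription unit, had 0 counts in both libraries of this pair. A change of these microRNAs thus cannot be seen here, nor be told apart from the loss of PRR11 and SKA2. SKA2 was lower in the libraries labelled LV-SKA2 and LV-P+S (60.5 and 63.6 CPM) than in their vector (71.7 CPM). MIR454 had 468 counts in LV-miR454 and 28 for the library labelled LV-miR301a, while the library labelled LV-3+4 had 0. For SKA2 or miR-454 these counts go against the labels LV-SKA2, LV-P+S, LV-miR301a and LV-3+4, and the directions below carry that limit. Some other counts run the way of the labels. MIR301A had 29 counts for the library labelled LV-miR301a, 34 for that labelled LV-3+4 and 0 in LV-miR454 and LV-vector-34. PRR11 was at 121 CPM in LV-PRR11 and 122 for the library labelled LV-P+S, little above the 111 with the vector. A clear rise of PRR11 is thus not seen in these counts. The knockouts are unchecked, since both loci had 0 counts in all CRISPRd libraries. PRR11 was at 132 CPM in CRISPRd_Control, 95.9 in CRISPRd_miR301a-#2 and 90.7 in CRISPRd_miR454-#1. SKA2 was at 63.4, 62.8 and 44.4 CPM in the same order. The part of these lower levels in the knockout results was not tested. The epithelial and A549 markers were above 1 CPM in all 13 libraries, 10 of 10 (KRT8, KRT18 and ALDH1A1 among them). Of the 10 to 12 blood cell markers listed, 2 to 3 reached 1 CPM in each library, and CD3E had 0 counts in both libraries of the CRISPRi pair.

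With the promoter of PRR11 and SKA2 repressed, 3 brakes were higher and 1 was lower. PIK3IP1, the inhibitor of PI3K itself, was 11.9-fold higher, INPP4B 3.74-fold and INPP5D 3.22-fold. PHLPP1, an AKT phosphatase, was at 40.9% of the mock level. A gene was counted as past the 2-fold rule when CPM plus 0.5 gave a log2 ratio of 1 or more in size and the exact 95% counting interval of its ratio excluded equality. By this rule 4 of 8 members passed, beside 15.4% of the 15003 measured genes of this pair (9.43% higher and 5.97% lower). The median log2 ratio was 0.47 over the 8 members and -0.04 over all measured genes, and the median size of the ratio was 0.82 against 0.41. The members were chosen with earlier results of these data known, so these comparisons with all measured genes are a description and no test. In bulk RNA, fewer cells with a transcript and less of it per cell cannot be told apart.

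PIK3IP1 lies at chr22:31281593-31292534 on the minus strand. It had 32 counts in the mock library and 408 in the CRISPRi library, or 1.56 and 18.5 CPM. The ratio was 11.9 (8.28 to 17.6) with a log2 ratio of 3.21, and 0.24% of the measured genes had a log2 ratio at least as high. In the PRR11 and SKA2 set its level was 2.71 CPM with the vector, 1.77 in LV-PRR11, 1.87 in the library labelled LV-SKA2 and 2.22 in the library labelled LV-P+S. In the lentiviral microRNA set it was 2.04 CPM in LV-vector-34, 2.11 in the library labelled LV-miR301a, 1.80 in LV-miR454 and 0.941 in the library labelled LV-3+4. It was lowest in the CRISPRd set, at 0.863 CPM in CRISPRd_Control, 0.594 in CRISPRd_miR301a-#2 and 0.330 in CRISPRd_miR454-#1. The CRISPRi library thus stood alone above 3 CPM, the level of the other 12 resting on 6 to 51 counts each. The strand setting of the counting was not given in the sources used here, and the antisense and divergent entries of PIK3IP1 held at most 2 counts in any library that lists them.

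The promoter of PIK3IP1 is shown because this gene moved farthest, and because FOXO factors, which AKT keeps out of the nucleus, have the core motif GTAAACA. RefSeq (GRCh38.p14) gives 17 windows for the 8 members, each from 250 bases before to 50 after an annotated start. The motif, searched on both strands, was in 1 of the 17, and in 1202 of 35116 windows of all genes (3.42%). The window lies at chr22:31292439-31292738 and is written on the minus strand, with the match in capitals, 16 bases after the start.
PIK3IP1 promoter: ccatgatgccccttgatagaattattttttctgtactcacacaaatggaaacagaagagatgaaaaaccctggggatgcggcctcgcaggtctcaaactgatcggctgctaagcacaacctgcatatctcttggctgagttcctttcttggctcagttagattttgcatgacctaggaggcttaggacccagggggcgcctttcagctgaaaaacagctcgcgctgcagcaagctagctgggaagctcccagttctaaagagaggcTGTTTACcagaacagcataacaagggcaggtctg
The match is the motif's reverse complement, TGTTTAC. It describes these letters only, and no binding was measured.

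Among the 5-phosphatases, INPP5D (chr2:233059967-233207903) had 11 counts in the mock library and 38 in the CRISPRi library, 0.535 and 1.72 CPM. The ratio was 3.22 (1.61 to 6.98) and the log2 ratio 1.10. This call rests on few reads: with a pseudocount of 2 in place of 0.5 the log2 ratio was 0.55 and the gene no longer passed. INPP5D marks blood cells, and the summed level of 12 blood cell markers was 37.0 CPM in the mock library and 93.6 in the CRISPRi library, of which CD68 made up 27.5 and 80.0 CPM. PTPRC, the pan-leukocyte marker CD45, had 0 and 2 counts, and CD3E had 0 in both. The summed level of 10 fibroblast markers went from 12.8 to 37.3 CPM, and FAP was at 0 in the mock library. Of the 6 measured, 5 were past the rule and higher, beside 9.43% of all measured genes, while COL3A1 went from 39 to 19 counts. In the controls LV-vector-PS, LV-vector-34 and CRISPRd_Control the sum was 53.0, 36.8 and 19.6 CPM. Of 10 epithelial markers 2 were past the rule and lower, CDH1 and EPCAM, beside 5.97% of all measured genes. KRT7, ALDH1A1 and MUC1 were higher within 2-fold, the rest lower, and the summed level was 31141 and 31514 CPM. The part of these markers in the result was not tested. INPPL1 (chr11:72223701-72239105), the abundant SHIP of these cells, went from 131 to 183 CPM, a ratio of 1.39 (1.32 to 1.46). INPP5K (chr17:1494571-1516888) went from 23.9 to 33.1 CPM with a ratio of 1.39 (1.23 to 1.56). Both were higher than counting error but within 2-fold, as were many genes, since the interval excluded equality for 71.6% of those measured.

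Of the 4-phosphatases, INPP4B (chr4:142023160-142847432) had 275 counts in the mock library and 1105 in the CRISPRi library, 13.4 and 50.1 CPM. Its ratio was 3.74 (3.28 to 4.29) and its log2 ratio 1.87, and 2.21% of the measured genes stood at least as high. Its paralogue INPP4A (chr2:98444854-98594390) had 34.1 and 35.2 CPM, a ratio of 1.03 whose interval holds equality (0.931 to 1.15). The AKT phosphatases were both lower. PHLPP1 (chr18:62715450-62980433) had 456 counts in the mock library and 200 in the CRISPRi library, 22.2 and 9.07 CPM, or 40.9% (34.4 to 48.3%). Its log2 ratio was -1.25, and 3.57% of the measured genes stood at least as low. PHLPP2 (chr16:71637835-71724701) went from 31.1 to 21.2 CPM, 68.1% of the mock level (60.3 to 76.8%), which is within 2-fold.

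**Figure D2:**
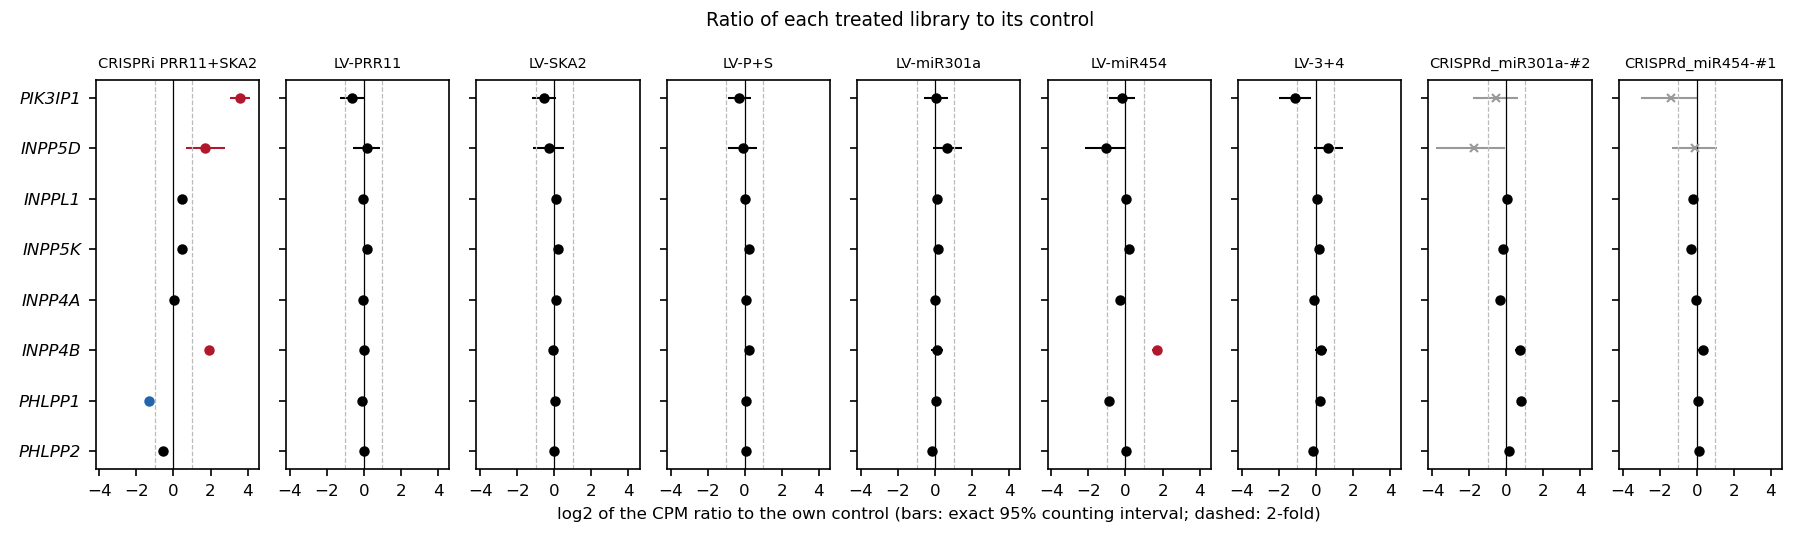
log2 of the CPM ratio to the own control for the 8 genes in the 9 pairs of treated and control library, with exact 95% counting intervals; red and blue mark genes past the 2-fold rule, grey crosses mark genes with too few reads, and dashed lines mark 2-fold. Coloured points are seen in the CRISPRi pair, with 3 higher and 1 lower, and for INPP4B in LV-miR454.

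In the libraries labelled LV-PRR11, LV-SKA2 and LV-P+S all 8 brakes stayed within 2-fold of the vector. PRR11 was at 121 CPM in LV-PRR11 against 111 with the vector, and SKA2 was below the vector in the libraries labelled for it. What raising either gene does to the brakes can therefore not be read from these pairs. The count past the rule was 0 of 8 in LV-PRR11 (0.299% of measured genes), 0 of 8 in the library labelled LV-SKA2 (0.253%) and 0 of 8 in the library labelled LV-P+S (0.261%). The level of INPP5K was 34.8 CPM with LV-vector-PS, 38.6 with LV-PRR11, 39.8 in the library labelled LV-SKA2 and 40.3 in the library labelled LV-P+S. All 3 values lie above the vector, with ratios of 1.11 (0.997 to 1.24), 1.14 (1.03 to 1.27) and 1.16 (1.04 to 1.29), and they share that 1 vector library. PIK3IP1 stood below the vector in all 3, at 65.2% (40.7 to 103%), 69.1% (43.6 to 108%) and 81.8% (53.0 to 125%), each interval holding equality. INPPL1 was at 1.09 times the vector in the library labelled LV-SKA2 (1.03 to 1.14). The level of INPP4B was 24.8 CPM with LV-vector-PS, 24.5 with LV-PRR11, 24.0 in the library labelled LV-SKA2 and 28.8 in the library labelled LV-P+S. Its ratio in the last of these was 1.16 (1.03 to 1.32). PHLPP1 lay between 29.01 and 32.5 CPM and PHLPP2 between 23.4 and 24.5 CPM over the 4 libraries. INPP4A lay between 40.3 and 44.5 CPM, and INPP5D between 1.34 and 1.82 CPM on 25 to 34 counts.

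In the lentiviral microRNA set INPP4B passed the rule, in LV-miR454, where the lipid phosphatase was higher while PHLPP1 was lower. The count past the rule was 0 of 8 for the library labelled LV-miR301a (0.732% of measured genes) and 0 of 8 for that labelled LV-3+4 (0.64%). In LV-miR454 it was 1 of 8, beside 6.4% of measured genes, 2.98% of them higher. The median log2 ratios of the 8 members in these 3 libraries were 0.09, 0.11 and -0.07, in that order, against 0.00083, 0.0052 and -0.0027 over all measured genes.

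INPP4B had 147 counts in LV-vector-34 (7.70 CPM), 163 in the library labelled LV-miR301a (8.38 CPM), 468 in LV-miR454 (24.8 CPM) and 178 in the library labelled LV-3+4 (9.31 CPM). LV-miR454 thus stood apart, at 3.21 times the vector (2.66 to 3.90), with a log2 ratio of 1.62 that 0.88% of measured genes reached. The ratio was 1.09 (0.865 to 1.37) for the library labelled LV-miR301a and 1.21 (0.966 to 1.51) for that labelled LV-3+4. Against CRISPRd_Control, the other control of this table, INPP4B in LV-miR454 was 2.38-fold higher (2.02 to 2.82).

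PHLPP1 had 648 counts in LV-vector-34 (33.96 CPM), 696 in the library labelled LV-miR301a (35.8 CPM), 350 in LV-miR454 (18.5 CPM) and 757 in the library labelled LV-3+4 (39.6 CPM). In LV-miR454 the level was 54.5% of that in LV-vector-34 (47.7 to 62.2%), just short of 2-fold, with a log2 ratio of -0.86. Against CRISPRd_Control the same library was at 82.2% (71.2 to 94.8%), so the size of this difference depends on the control. In the library labelled LV-3+4 PHLPP1 was at 1.17 times the vector (1.05 to 1.297). PHLPP2, which holds 1 seed match, lay between 20.8 and 23.1 CPM in all 4 libraries. INPP4A went from 42.8 CPM with the vector to 34.4 in LV-miR454, or 80.4% (72.4 to 89.2%), and INPP5K was at 1.16 times the vector (1.03 to 1.31).

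PIK3IP1 was at 46.1% of the vector in the library labelled LV-3+4 (24.8 to 82.5%), 18 against 39 counts. Its log2 ratio of -0.82 did not pass the rule, though 0.558% of measured genes stood at least as low. Against CRISPRd_Control the ratio was 1.09 (0.531 to 2.25), 18 against 17 counts, with PIK3IP1 under the filter in that pair. This difference thus depends on the control. In the other lentiviral microRNA libraries it had 41 and 34 counts, near the vector. INPP5D had 25 counts in the vector, 40 in the library labelled LV-miR301a, 12 in LV-miR454 and 40 in the library labelled LV-3+4. The ratios were 1.57 (0.930 to 2.70), 48.5% in LV-miR454 (22.2 to 100.1%), and 1.60 (0.945 to 2.75), none of which could be told from equality at this depth. INPPL1 stayed between 149 and 160 CPM. The summed level of the fibroblast markers was 36.8 CPM with the vector, 87.1 for the library labelled LV-miR301a and 82.2 for LV-miR454, where COL1A1 made up 75.6 CPM. COL3A1 went the other way in LV-miR454, from 178 to 60 counts. Of 10 epithelial markers 1 passed the rule there, CDH1, lower at a log2 ratio of -1.03. Their part in the result was not tested.

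With the microRNA precursors knocked out, no measured brake passed 2-fold. The count was 0 of 6 measured members in CRISPRd_miR301a-#2 (10.9% of measured genes) and 0 of 6 in CRISPRd_miR454-#1 (9.71%). INPP5D and PIK3IP1 fell under the filter of 20 reads over both libraries and 1 CPM in either. INPP5D had 14 counts in the control, 4 in CRISPRd_miR301a-#2 and 12 in CRISPRd_miR454-#1, and PIK3IP1 had 17, 11 and 6. Within 2-fold, INPP4B and PHLPP1 stood higher in CRISPRd_miR301a-#2. INPP4B was at 10.4 CPM in the control, 17.2 in CRISPRd_miR301a-#2 and 12.97 in CRISPRd_miR454-#1, ratios of 1.66 (1.38 to 1.98) and 1.247 (1.03 to 1.51). PHLPP1 was at 22.5, 38.5 and 23.5 CPM, ratios of 1.71 (1.52 to 1.93) and 1.04 (0.912 to 1.19).

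The other members differed less in the knockouts. CRISPRd_miR301a-#2 had 78.2% of the control level of INPP4A (70.0 to 87.2%), and CRISPRd_miR454-#1 had 98.6%. INPPL1 and INPP5K were lower in CRISPRd_miR454-#1, at 86.0% (81.6 to 90.7%) and 81.7% (72.0 to 92.8%), and both intervals held equality in CRISPRd_miR301a-#2. PHLPP2 was between 27.6 and 30.4 CPM in the 3 libraries. CRISPRd_miR301a-#2 also held 76 counts of PTPRC, against 2 in its control and 3 in CRISPRd_miR454-#1. The summed level of the blood cell markers was 49.0 CPM in the control, 119.8 in CRISPRd_miR301a-#2 and 150.9 in CRISPRd_miR454-#1, mostly CD68. Of 10 epithelial markers 3 were higher in each knockout, CDH1 and AKR1C1 in both, beside 6.73% and 6.62% of all measured genes. KRT7 and EPCAM were lower in both, within 2-fold. Against LV-vector-34, 0 epithelial markers passed as higher and 1 as lower in each knockout. THY1, a fibroblast marker, went from 81 counts to 0 in both, but it also had only 10 counts in LV-vector-34. The part of these in the results was not tested.

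The controls of one table show how far these genes can lie apart without a treatment of the microRNAs. Between LV-vector-34 and CRISPRd_Control, 0 of 8 members passed the rule, beside 4.36% of measured genes. PIK3IP1 was 2.37-fold higher in LV-vector-34 (1.31 to 4.47), 39 against 17 counts, with a log2 ratio of 0.90. PHLPP1 was 1.51-fold higher (1.33 to 1.70), INPP4B was at 74.1% (59.5 to 92.0%) and PHLPP2 at 83.3% (73.3 to 94.7%). Against LV-vector-34, PHLPP1 in CRISPRd_miR301a-#2 had a log2 ratio of 0.18 in place of 0.76, whereas INPP4B had 1.11 in place of 0.70. Counted against LV-vector-34, 3 of 8 members passed in CRISPRd_miR301a-#2 (8.86% of measured genes) and 1 of 8 in CRISPRd_miR454-#1 (9.26%), PIK3IP1 being lower in both. Counted against CRISPRd_Control, 1 passed for the library labelled LV-miR301a (4.93%), 1 for LV-miR454 (5.6%) and 1 for that labelled LV-3+4 (4.38%). Those were INPP5D, INPP4B and INPP5D, all higher.

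Where a brake has a paralogue, the share of the pair's counts is free of the scaling between libraries. INPP4B made up 28.2% of the INPP4A and INPP4B counts in the mock library (exact 95% interval 25.4 to 31.1%) and 58.7% in the CRISPRi library (56.5 to 61.0%). In LV-miR454 it was 41.9% (38.9 to 44.8%) against 15.3% in LV-vector-34 (13.1 to 17.7%). CRISPRd_miR301a-#2 had 36.1% (32.9 to 39.4%) and its control 21.0% (18.5 to 23.7%). The balance of the 4-phosphatases thus lay more on INPP4B in these 3 libraries, with intervals apart from those of the control. In the PRR11 and SKA2 set it stayed between 35.1 and 39.9%, and the intervals of all 3 libraries overlapped that of the vector.

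PHLPP1 made up 41.6% of the PHLPP1 and PHLPP2 counts in the mock library (38.7 to 44.6%) and 30.0% in the CRISPRi library (26.5 to 33.6%). It was 59.7% in LV-vector-34 (56.7 to 62.6%) and 44.5% in LV-miR454 (41.0 to 48.0%), but 65.6% in the library labelled LV-3+4 (62.8 to 68.3%). CRISPRd_miR301a-#2 had 55.9% (53.1 to 58.7%) against 45.0% in its control (41.8 to 48.2%). The share therefore lay below the own control in the CRISPRi library and LV-miR454. It lay above the own control in CRISPRd_miR301a-#2 and in the library labelled LV-3+4. The controls LV-vector-34 and CRISPRd_Control also lay apart, at 59.7% and 45.0%. The interval of LV-miR454 overlapped that of CRISPRd_Control, and the interval of CRISPRd_miR301a-#2 overlapped that of LV-vector-34. In these 2 libraries the difference in share thus depends on the control. INPP5D never exceeded 1.34% of the INPP5D and INPPL1 counts, and was 0.406% in the mock and 0.934% in the CRISPRi library with overlapping intervals. The shares of counts are not corrected for the length of the genes.

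**Figure D3:**
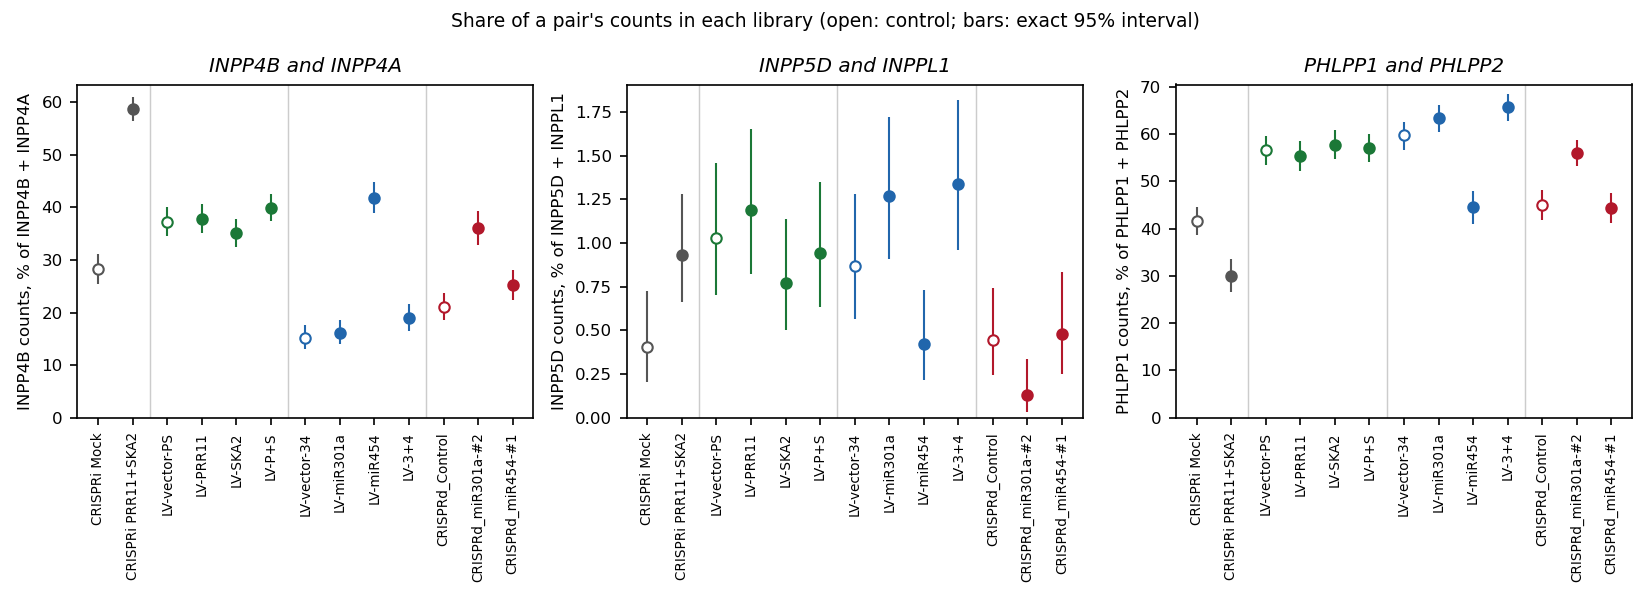
Share of each pair's counts held by INPP4B, INPP5D or PHLPP1 (percent, axes from 0) in the 13 libraries, with exact 95% intervals and open points for controls. INPP4B goes from 28.2 to 58.7% in the CRISPRi pair and from 15.3 to 41.9% in LV-miR454, and PHLPP1 from 41.6 to 30.0% and from 59.7 to 44.5%.

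Other genes of the pathway were read from lists chosen with earlier results of these data known. In the CRISPRi pair 0 of 21 measured other phosphoinositide phosphatases and 0 of 28 core genes such as the PI3K and AKT subunits passed the rule. Their median log2 ratios were -0.20 and -0.16, beside -0.04 over all measured genes. Of 25 other brakes, 3 passed and all were higher, a share near the 9.43% of all measured genes. They are the sestrins, stress-induced inhibitors of mTORC1: SESN2 at a log2 ratio of 1.299, SESN3 at 1.23 and SESN1 at 1.01. Of 9 scaffolds and ubiquitin enzymes that act on PHLPP proteins, 2 were lower, beside 5.97% of all measured genes. FKBP5, a scaffold that brings PHLPP to AKT, had a log2 ratio of -1.83 (581 to 167 counts), and USP1, a deubiquitinase reported to stabilise PHLPP1, had -1.85 (1208 to 353 counts).

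FOXO targets, which are read out when AKT is less active, had 7 of 19 higher and 1 lower in the CRISPRi pair, beside 9.43% higher and 5.97% lower among all measured genes. The median log2 ratio was 0.45 over the 19. FBXO32, a muscle atrophy ubiquitin ligase, was 14.4-fold higher (11.2 to 18.7) and TXNIP, which limits glucose uptake, 6.29-fold (3.70 to 11.4). CCNG2 and BBC3 were 3.02-fold and 2.85-fold higher, while PDK4, named as the 1 lower gene after its values were seen, was at a log2 ratio of -1.35. SESN1 and SESN3 stand in this list as well as among the other brakes. The members of the list thus did not move one way. AKT activity was not measured in this pair, and a link between these targets and the brakes was not tested.

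In the lentiviral sets few genes of these lists passed. None did in the PRR11 and SKA2 set or in the library labelled LV-3+4. In LV-miR454 DDIT4, an inhibitor of mTORC1, had a log2 ratio of -1.17, and SGK3, a kinase related to AKT that binds phosphoinositides, had 1.303. SGK3 had 1.19 in the library labelled LV-miR301a. Of the FOXO targets in LV-miR454, PDK4 (-2.25) and CCNG2 (-1.24) were lower and TXNIP (1.19) was higher.

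In the knockouts FOXO targets were higher in 7 of 19 for CRISPRd_miR301a-#2 and in 6 of 19 for CRISPRd_miR454-#1, and 0 were lower. AKT activity was not measured, and a link to the brakes was not tested. Among all measured genes 6.73% and 6.62% were higher in these pairs. The median log2 ratio of the list was 0.35 and 0.72. Between the controls LV-vector-34 and CRISPRd_Control 2 of 18 were higher, with a median of 0.46, and against LV-vector-34 the knockouts had 5 and 4 of 19 higher. TXNIP had 5 counts in the control, 217 in CRISPRd_miR301a-#2 and 341 in CRISPRd_miR454-#1. PDK4 was 8.02-fold higher (7.71 to 8.35) and 12.03-fold higher (11.6 to 12.5). SESN3 had log2 ratios of 2.299 and 1.92, but it also had 1.11 between the controls LV-vector-34 and CRISPRd_Control. GRB10, an adaptor that restrains insulin receptor signalling, had -1.46 in CRISPRd_miR301a-#2, where IRS2 had 1.51 and SGK1 1.13. PIK3C2B had 1.07 and NHERF1, a scaffold of PHLPP proteins, 1.302 in CRISPRd_miR454-#1.

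Genes with the pattern nearest to a brake were found by the root mean square difference of the log2 ratios over the 9 pairs, among 12210 genes. The pairs share controls within a set, so the measure is a description. For PHLPP1 the nearest were NCOA3, a nuclear receptor coactivator (0.104), VAV3, a guanine nucleotide exchange factor (0.140), and CSGALNACT1, an enzyme of chondroitin sulphate synthesis (0.141), where the median gene stood at 0.619. For INPP4B they were MN1 (0.250), NIPAL2 (0.288) and TGFBI, a matrix protein induced by TGF-beta (0.292), against a median of 0.942. MN1 had log2 ratios of 1.498 in the CRISPRi pair and 1.42 in LV-miR454, beside 1.87 and 1.62 for INPP4B.

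For PIK3IP1 the nearest genes were farther off, ZNF10, a zinc finger protein (0.327), MAGED4B (0.401) and AMPD3, an AMP deaminase (0.484), against a median of 1.22. ZNF10 had a log2 ratio of 3.59 in the CRISPRi pair. MAGED4B has a near-identical copy, so its counts are uncertain. For INPP5D they were CHRNB4, a nicotinic receptor subunit (0.252), GXYLT2 (0.253) and MORN4 (0.262), against a median of 0.648. INPP5D had only 4 to 40 counts per library, so its nearest genes rest on few reads. Both INPP5D and PIK3IP1 were under the filter in the CRISPRd pairs, which the measure still includes. A pattern led by the CRISPRi pair weighs most in this measure, since the members differ most there.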

How the data were processed

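The sequenced material was poly(A) RNA of 13 A549 libraries. The authors deposited their expected counts, estimates per gene that were not normalised, as 3 tables. The submitters' processing notes name RSEM 1.3.3, Bowtie2 2.3.5.1 and GRCh38.p13. Annotation release and strand setting: not given in the sources used here. Expected counts were rounded to whole numbers. Among the entries of the CRISPRi libraries, 181 had no gene name (0.355% and 0.431% of counts) and were left out. In the microRNA and CRISPRd table, 4840 numbered copies (2.02% of counts) were summed per symbol, which adds at most 6 counts to INPP5D. Library sizes were scaled by TMM (edgeR 4.0.16 in R 4.3.3) within each table, and ratios were formed within tables.

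A gene was measured with at least 20 reads over both libraries and 1 CPM in either. Log2 ratios use CPM plus 0.5, which makes the changes of low genes look smaller. Folds and percentages are plain CPM ratios with exact (Clopper-Pearson) 95% intervals. These intervals hold counting error alone and no spread between cultures. They treat reads as independent molecules, which cannot be checked without molecular identifiers, so they can be too narrow. There is no p-value, since every group is 1 library. The calls were tested on simulated data. Named genes are the 8 members, up to 4 genes past the rule per list and comparison, and the 3 nearest patterns of each member past the rule. PDK4 in the CRISPRi pair and some marker genes are named besides these. The members and lists were chosen with earlier results of these data known, and the paralogue shares were added after values were seen. Promoters of all 8 members matched RefSeq. Some items, 1 seed match among them, are not reported here. Alternatives were DESeq2 1.42.0 size factors, total counts, other pseudocounts and filters, and the other control library. Python 3.11.15 was used.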

Additional observations from a re-analysis of the deposited data

How the results depend on the processing

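The number of members past 2-fold stayed within 1.5 times its value in all 9 pairs and between the controls LV-vector-34 and CRISPRd_Control under DESeq2 size factors, total counts, a pseudocount of 2, no filter and a filter of 5 CPM. With a pseudocount of 2 INPP5D in the CRISPRi pair no longer passed. The control library mattered more. Against LV-vector-34, CRISPRd_miR301a-#2 had 3 members past 2-fold in place of 0, with INPP4B higher at a log2 ratio of 1.11 and INPP5D (-1.34) and PIK3IP1 (-1.22) lower. CRISPRd_miR454-#1 had 1, PIK3IP1 at -1.62. Against CRISPRd_Control, an alternative chosen after seeing the data, those labelled LV-miR301a and LV-3+4 had 1 each, INPP5D at 1.08 and 1.10, and LV-miR454 had 1, INPP4B at 1.21. The cause was not tested. None of these alternatives turned the direction of a member past 2-fold. Leaving out a replicate was not possible with 1 library per group, and depth limits INPP5D and PIK3IP1, which had 4 to 51 counts outside the CRISPRi library. No paired analysis was possible because each group holds 1 library and the labels give no replicate numbers.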
